A study of Mus musculus with 6 samples.

Results

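The cristae organization and complex III assembly genes are 10 nuclear genes: Chchd6, Chchd3, Immt, Micos13, Apoo, Apool and Opa1, which shape the inner mitochondrial membrane, and Uqcc1, Uqcc2 and Uqcc3, which help to build respiratory complex III. They were taken by name from the 21958 genes of the deposited table, and all 10 were found and passed the filter on low counts. The set was put together because Chchd6 and Uqcc2 were among the most consistently higher genes in Mn-N/C tumors, so their fold changes below describe how they were chosen and carry no test. The other 8 came in as partners of these genes.

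MC38 is a mouse colon carcinoma line, grown here under the skin of wild-type male C57BL/6J mice. Tumors received either Mn-N/C, a nanozyme of single manganese atoms on nitrogen-doped carbon, at 70 mg/kg, or saline as vehicle, both injected into the tumor in 50 µl every 3 days. They were collected at a volume of 800 to 1000 mm³, and RNA of snap-frozen tissue was sequenced in 3 Mn-N/C and 3 vehicle libraries. Neither the labels nor the methods tie the 3 libraries of a group to 3 animals. The p-values thus reflect only the spread between these samples, which may be technical. Whole tissue was sequenced, in which fewer cells of a type and less RNA per cell cannot be told apart.

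Libraries held 16647865 to 18961134 counts in the Mn-N/C group and 14988588 to 18439017 in the vehicle group. The counts of every pair of libraries in a group differed by more than sampling noise (chi-square per degree of freedom 6.56 to 27.0). Between the groups this value was 5.93 to 55.8. The most alike pair of all was Mn-N/C replicate 3 with vehicle replicate 2. Vehicle replicate 2 was at 12.1 and 27.0 with vehicle replicates 1 and 3, against 8.93 with Mn-N/C replicate 1 and 20.2 with Mn-N/C replicate 2. Of 8 colon epithelial markers, Cdh1 held most of the signal, at 29.6 to 39.5 CPM (counts per 1000000 library counts after TMM scaling) in Mn-N/C and 18.1 to 31.4 CPM in vehicle libraries. Lgals4, the other of the 2 tested, had 2.10 to 4.67 CPM in Mn-N/C and 3.77 to 6.06 CPM in vehicle libraries. The log2 fold change of Mn-N/C over vehicle was 0.33 (standard error 0.211) for Cdh1 and -0.50 (0.342) for Lgals4. The epithelial keratin gene Krt8 stayed below 0.5 CPM in every library, at or near the level that a few counts give, and Cdx2 had no count. Summed over 12 skeletal muscle markers, a tissue rich in mitochondria, the level was 14.5 to 840 CPM in Mn-N/C and 23.3 to 272 CPM in vehicle libraries, with the highest sum in Mn-N/C replicate 2. Of 11 muscle markers tested 10 had a higher mean in Mn-N/C tumors, which rests largely on Mn-N/C replicate 2. Mn-N/C replicates 1 and 3 had sums of 41.1 and 14.5 CPM, against 23.3, 142 and 272 CPM in vehicle replicates 1 to 3. In edgeR 0 of the 11 had an unadjusted p under 0.05, where 9.82% of all genes were higher. All 6 adipocyte markers tested had a lower mean in Mn-N/C tumors, 3 of them at an unadjusted p under 0.05 in edgeR, where 11.1% of all genes were lower. The sum of 8 was 17.2 to 25.0 CPM in Mn-N/C and 17.8 to 63.7 CPM in vehicle libraries. The sum of 6 fibroblast markers was 3344 to 8083 CPM in Mn-N/C and 3654 to 5809 CPM in vehicle libraries. Their means were higher for 2 and lower for 4. For 8 macrophage markers the sum was 529 to 700 CPM in Mn-N/C and 414 to 652 CPM in vehicle libraries. There 7 means were higher and 1 lower. T cell, endothelial and skin keratinocyte sums overlapped between the groups too. The part of these tissues and cell types in the results below was not tested.

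Cristae are the folds of the inner mitochondrial membrane that hold the respiratory chain. The MICOS complex sits at the neck of each fold: Immt (Mic60) anchors it and reaches the outer membrane, Chchd3 (Mic19) and Chchd6 (Mic25) bind Immt, Micos13 (Mic13) joins the Immt part to the membrane-bending part, and Apoo (Mic26) and Apool (Mic27) belong to that other part. Opa1, a dynamin-like GTPase, fuses inner membranes and keeps the fold necks tight. Complex III passes electrons from ubiquinol to cytochrome c, and its core, cytochrome b, is made inside the mitochondrion, where Uqcc1 and Uqcc2 hold the new protein and Uqcc3 acts in the next step.

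The promoters of 4 genes are shown because they belong to the members that stood highest (Chchd6, Micos13, Uqcc2) and to the closest relative of Chchd6 (Chchd3). Each line gives the 250 bases before the transcription start, 5′ to 3′ on the strand of the gene, from RefSeq on GRCm38.p6. The windows are chr6:89595653-89595902 (minus strand) for Chchd6, chr6:33060261-33060510 (minus) for Chchd3, chr17:56609772-56610021 (minus) for Micos13 and chr17:27133892-27134141 (minus) for Uqcc2. Capitals mark a match on either strand to ACTACANNTCCCA, part of the motif known for the zinc finger factor ZNF143, or to TGCGCA, the core of the motif of the nuclear respiratory factor NRF1. The first of these holds the letters that sites in Chchd6, Chchd3 and Micos13 share, with N where they differ, and was chosen after the sequences were seen, so its presence in these 3 genes is given by that choice.
Chchd6: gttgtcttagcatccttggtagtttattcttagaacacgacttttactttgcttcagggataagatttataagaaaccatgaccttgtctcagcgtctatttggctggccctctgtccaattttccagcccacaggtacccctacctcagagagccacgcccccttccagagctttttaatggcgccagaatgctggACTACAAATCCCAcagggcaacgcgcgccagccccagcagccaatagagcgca
Chchd3: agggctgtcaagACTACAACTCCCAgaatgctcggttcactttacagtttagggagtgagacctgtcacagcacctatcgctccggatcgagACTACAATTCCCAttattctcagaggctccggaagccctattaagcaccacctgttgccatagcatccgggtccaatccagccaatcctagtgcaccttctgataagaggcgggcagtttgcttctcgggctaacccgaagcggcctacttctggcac
Micos13: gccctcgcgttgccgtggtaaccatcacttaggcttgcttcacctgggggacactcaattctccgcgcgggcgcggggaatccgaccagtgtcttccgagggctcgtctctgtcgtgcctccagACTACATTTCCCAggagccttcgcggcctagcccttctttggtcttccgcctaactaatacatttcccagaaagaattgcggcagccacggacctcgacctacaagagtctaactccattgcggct
Uqcc2: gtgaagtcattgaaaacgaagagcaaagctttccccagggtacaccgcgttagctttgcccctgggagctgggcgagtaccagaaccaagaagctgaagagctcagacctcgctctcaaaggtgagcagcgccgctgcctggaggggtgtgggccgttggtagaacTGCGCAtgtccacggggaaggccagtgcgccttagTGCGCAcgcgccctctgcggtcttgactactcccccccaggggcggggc
ACTACANNTCCCA stood in 3 of the 10 genes and in none of the other 7. Chchd6 had it at position -53 from the start, Chchd3 at -238 and -158, and Micos13 at -126 and again at 11 bases past the start, outside the stretch shown. Of all 32851 promoter windows of 250 bases before to 50 after a start, 1.47% held this motif. TGCGCA, which reads the same on both strands and did not overlap with the other motif in these windows, stood in Uqcc2 at positions -84 and -49, in Opa1 at -54 and in Immt at 7, against 7.76% of all windows. Over the 393 tested genes with the first motif the median log2 fold change was -0.04, and over the 1578 with the second 0.01, beside 0.00083 over all genes tested. A match describes letters only and does not show that a factor bound there.

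Among the MICOS genes, Chchd6 stood furthest apart between the groups. Chchd6 (ENSMUSG00000030086, chr6:89360128-89572634 as the file gives it) had 30.7, 29.7 and 28.7 CPM in Mn-N/C replicates 1 to 3, against 20.5, 20.1 and 18.0 CPM in vehicle replicates 1 to 3. Every Mn-N/C library lay above every vehicle library, with a gap several times the spread within a group. On the log2 scale the difference was 0.60 (standard error 0.102), which is 1.52-fold. Of the 12800 tested genes, 98.3% had a lower log2 fold change, with all negative ones counted as lower.

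Chchd3, the paralog that binds Immt in the same way, differed much less. It had 92.4, 88.4 and 101 CPM in Mn-N/C replicates 1 to 3, against 84.0, 90.9 and 86.6 CPM in vehicle replicates 1 to 3. The groups overlapped, and the log2 fold change was 0.11 (95% interval -0.07 to 0.29, adjusted p = 0.454 in edgeR), with 0.05 without Mn-N/C replicate 3. Per gene length, Chchd6 stood at 0.382, 0.386 and 0.325 of the FPKM of Chchd3 in Mn-N/C replicates 1 to 3, against 0.280, 0.255 and 0.239 in vehicle replicates 1 to 3. These ratios need no scaling between libraries, and they did not overlap either. They rest on the same Chchd6 values and add no separate evidence.

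Micos13 (ENSMUSG00000049760, chr17:56914452-56916771 as the file gives it), which joins the 2 parts of MICOS, was the other MICOS gene among the 10 without overlap between the groups. It had 32.5, 31.3 and 33.6 CPM in Mn-N/C replicates 1 to 3, against 24.0, 25.4 and 24.0 CPM in vehicle replicates 1 to 3. The lowest Mn-N/C value was above the highest vehicle value. The log2 fold change was 0.41 (standard error 0.0914, 95% interval 0.20 to 0.62), with an adjusted p = 0.182 from edgeR, a value that many genes share and none went below. By unadjusted p it ranked 82 of the 12800 genes. DESeq2 called it higher (adjusted p = 0.0265), as it did 4.09% of the genes to which it gave an adjusted p, with 5.25% called lower.

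Immt, the anchor of the complex, was close between the groups. It had 190, 195 and 189 CPM in Mn-N/C replicates 1 to 3, against 168, 187 and 195 CPM in vehicle replicates 1 to 3. The groups overlapped, with the widest spread in the vehicle libraries, and the log2 fold change was 0.06 (95% interval -0.11 to 0.24, adjusted p = 0.67 from edgeR), with 0.01 without vehicle replicate 1 and 0.11 without vehicle replicate 3. Per gene length, Micos13 stood at 1.66, 1.56 and 1.72 times Immt in Mn-N/C replicates 1 to 3. In vehicle replicates 1 to 3 it stood at 1.39, 1.32 and 1.19 times Immt. These ratios rest on the same Micos13 values and keep each library's trend with GC content, described below. With that trend removed, Micos13 was at 0.30 and Immt at 0.35 on the log2 scale, so Micos13 no longer stood above Immt.

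The apolipoprotein O genes rested on 210 to 315 counts per library and varied most. Apoo had 15.0, 16.5 and 16.6 CPM in Mn-N/C replicates 1 to 3, against 12.6, 17.6 and 14.0 CPM in vehicle replicates 1 to 3. Apool had 14.3, 12.5 and 15.9 CPM in Mn-N/C replicates 1 to 3, against 14.8, 12.9 and 20.4 CPM in vehicle replicates 1 to 3. Vehicle values alone spread by 17.5% (Apoo) and 24.4% (Apool) of their mean as the SD, the widest of the 10 genes, and they covered the Mn-N/C values but for the lowest one of Apool. The log2 fold changes were 0.12 (95% interval -0.22 to 0.47) for Apoo and -0.17 (-0.60 to 0.27) for Apool, with adjusted p-values of 0.674 and 0.649 from edgeR, and both moved with single libraries. Apoo was at 0.03 without vehicle replicate 1 and at 0.29 without vehicle replicate 2, and Apool at 0.04 without vehicle replicate 3 and at -0.29 without vehicle replicate 2.

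Opa1 had a lower mean in Mn-N/C tumors by a small margin. It had 111, 112 and 114 CPM in Mn-N/C replicates 1 to 3, against 116, 115 and 135 CPM in vehicle replicates 1 to 3. The groups did not overlap, but the nearest values were less than 1 CPM apart. The log2 fold change was -0.12 (95% interval -0.30 to 0.07, adjusted p = 0.449 from edgeR), and it was -0.04 without vehicle replicate 3, the highest library.

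**Figure D1:**
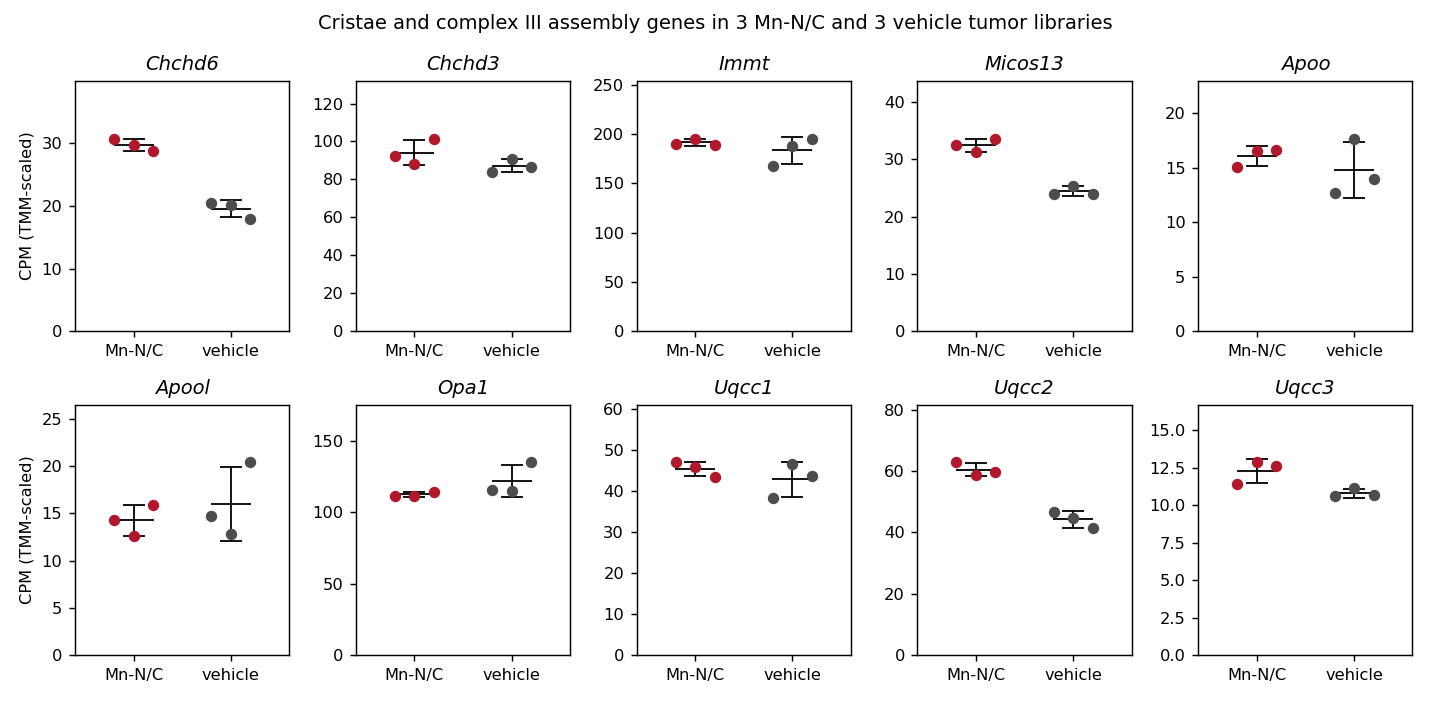
CPM of the 10 genes, 1 panel per gene, with Mn-N/C libraries in red on the left and vehicle libraries in gray on the right. Points are replicates 1 to 3 from left to right, and the bars give mean and SD (n = 3). Chchd6, Micos13 and Uqcc2 show the clear gaps, at 29.7 against 19.5, 32.4 against 24.5 and 60.4 against 44.2 CPM on average.

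Of the complex III assembly genes, Uqcc2 stood apart and its partner Uqcc1 did not. Uqcc2 (ENSMUSG00000024208, chr17:27341637-27352890 as the file gives it) had 62.8, 58.8 and 59.6 CPM in Mn-N/C replicates 1 to 3, against 46.8, 44.6 and 41.4 CPM in vehicle replicates 1 to 3. The groups were separated by 12.0 CPM, more than the range within either. The log2 fold change was 0.45 (standard error 0.0791), which is 1.36-fold. Of the tested genes, 96.3% had a lower one, with all negative ones counted as lower.

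Uqcc1, which works as a pair with Uqcc2 (known best from their yeast counterparts), had 46.9, 45.7 and 43.3 CPM in Mn-N/C replicates 1 to 3, against 38.2, 46.6 and 43.7 CPM in vehicle replicates 1 to 3. The groups overlapped, and the log2 fold change was 0.08 (95% interval -0.14 to 0.30, adjusted p = 0.66 from edgeR), with 0.01 without vehicle replicate 1 and 0.16 without vehicle replicate 2. Per gene length, Uqcc2 stood at 9.68, 9.30 and 9.93 times Uqcc1 in Mn-N/C replicates 1 to 3, against 8.85, 6.91 and 6.84 times in vehicle replicates 1 to 3. The nearest libraries were Mn-N/C replicate 2 and vehicle replicate 1, whose low Uqcc1 value raised its ratio. As with Chchd6, these ratios rest on the same Uqcc2 values and add no separate evidence.

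Uqcc3, the factor of the following step, had 11.4, 12.9 and 12.7 CPM in Mn-N/C replicates 1 to 3, against 10.6, 11.1 and 10.7 CPM in vehicle replicates 1 to 3. The groups did not overlap, by 0.257 CPM, on 160 to 245 counts per library. The log2 fold change was 0.19 (95% interval -0.11 to 0.48, adjusted p = 0.429 from edgeR). Its ratio to Uqcc1 per gene length overlapped between the groups, at 1.79 to 2.15 in Mn-N/C and 1.76 to 2.05 in vehicle libraries.

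**Figure D2:**
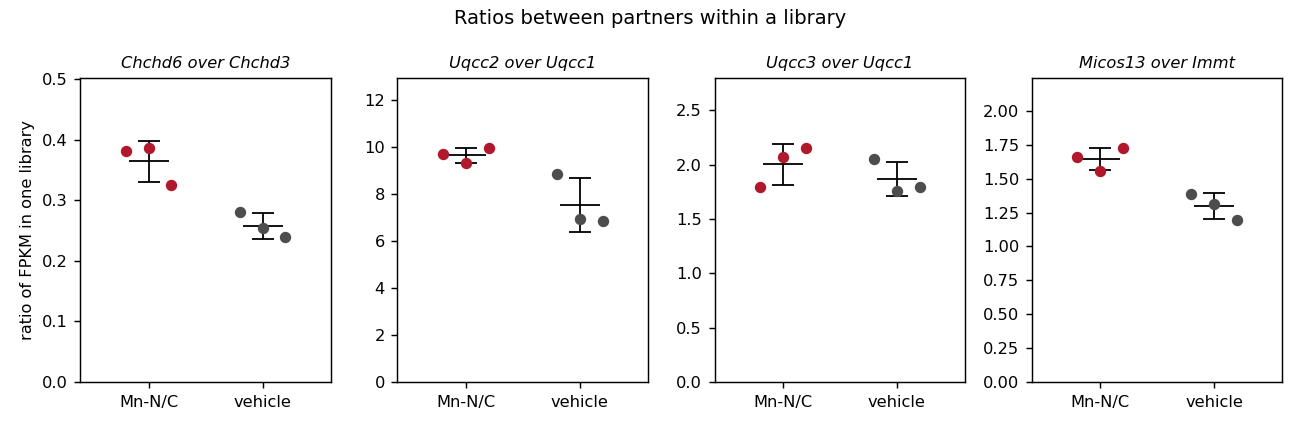
Ratio of FPKM between 2 genes within each library, for 4 pairs of partners, with Mn-N/C libraries in red on the left and vehicle libraries in gray on the right (points are replicates 1 to 3, bars mean and SD, n = 3). Chchd6 over Chchd3 averaged 0.364 ± 0.0338 in Mn-N/C and 0.258 ± 0.0211 in vehicle libraries, while Uqcc3 over Uqcc1 overlapped. Chchd6 and Uqcc2 were chosen on this contrast, so their ratios are a description. All ratios keep each library's trend with GC content.

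Over the 8 genes that were not picked on their values, the mean in Mn-N/C tumors was higher for 6 and lower for 2, at a median of 0.10 on the log2 scale, where 50.2% of all tested genes had a higher mean. This median was 0.02 without vehicle replicate 1, 0.16 without vehicle replicate 2 and 0.17 with the GC trend removed. In edgeR 0 of the 8 passed an adjusted p of 0.05, as did 0% of all genes, and at an unadjusted p under 0.05 the gene Micos13 alone was higher, where 9.82% of all genes were higher and 11.1% lower. Among these 8, Micos13 and Uqcc3 were higher without overlap between the groups and Opa1 lower, against 14.2% and 12.1% of all genes. Those shares are near the background. DESeq2 gave no adjusted p for Apoo, Apool and Uqcc3, and called Micos13 among the other 5.

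Per gene length, the mean FPKM put the 10 genes in the same order in both groups but for Uqcc3 and Opa1. This order depends on the length that the file gives each gene, such as 837 bases for Uqcc2, 6044 for Uqcc1 and 11353 for Immt. By mean CPM, not divided by length, Immt was the highest of the 10, at 192 in Mn-N/C and 183 in vehicle tumors. The size of the FPKM ratios between genes depends on these lengths too, but their comparison between the groups does not. By FPKM, Uqcc2 was first by a wide margin, at 71.6 ± 1.68 FPKM in Mn-N/C and 53.2 ± 3.79 FPKM in vehicle tumors (SD, n = 3 each). Chchd3 followed at 32.1 ± 2.23 FPKM in Mn-N/C and 30.2 ± 0.878 FPKM in vehicle tumors, and Micos13 at 27.5 ± 0.864 FPKM in Mn-N/C and 21.1 ± 0.566 FPKM in vehicle tumors. The ranges of these 3 genes were apart from each other in either group. Immt came next, at 16.8 ± 0.46 FPKM in Mn-N/C and 16.3 ± 1.06 FPKM in vehicle tumors.
Uqcc3 and Opa1, whose ranges overlapped in Mn-N/C tumors, held the next places, with Uqcc3 first in Mn-N/C (14.9 against 14.2 FPKM for Opa1) and Opa1 first in vehicle tumors (15.6 against 13.2 FPKM for Uqcc3). In vehicle tumors the range of Opa1 overlapped that of Immt, and the range of Uqcc3 that of Apoo, so the order of these neighbours is not settled there. Apoo was at 12.7 ± 0.855 FPKM in Mn-N/C and 11.8 ± 1.94 FPKM in vehicle tumors. Chchd6 held place 8 in both groups. Its FPKM overlapped that of Apoo in Mn-N/C tumors (11.7 ± 0.325 for Chchd6) and that of Uqcc1 in vehicle tumors (7.78 ± 0.594 for Chchd6, 7.13 ± 0.625 for Uqcc1). Apool was last, at 4.06 ± 0.461 FPKM in Mn-N/C and 4.62 ± 1.12 FPKM in vehicle tumors.

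GC content moved with the groups in these libraries and differed between the 10 genes. Over 12783 tested genes, Spearman's rho of the log2 fold change with GC content was 0.49, and over 12800 genes it was -0.26 with gene length (genes of 1 library share its depth and base composition). Within a library, rho of the centered level with GC content was 0.40, 0.33 and 0.21 for the 3 Mn-N/C libraries, against -0.25, 0.17 and -0.54 for the 3 vehicle libraries. Chchd6, Uqcc3, Micos13 and Uqcc2 lay between 52.4% and 53.6% GC, in the fourth of 5 equal classes of genes by GC content, whose median log2 fold change was 0.10. Immt, Apool and Opa1 lay between 39.8% and 43.5%, in the lowest class, whose median was -0.28.
In the fit with each library's GC trend removed, Chchd6 was at 0.50 and Uqcc2 at 0.33 on the log2 scale, and Micos13 at 0.30 (adjusted p = 0.188 from edgeR). In that fit all 10 genes had a log2 fold change above 0, Chchd6 and Uqcc2 among them by choice, and the median over all genes was -0.02. Immt was at 0.35 (adjusted p = 0.189 from edgeR). Apool and Opa1, whose means were lower as counted, were at 0.13 (standard error 0.123) and 0.05 (0.0576), and Uqcc3 was at 0.08 (0.126). With the trend on gene length removed instead, Chchd6 was at 0.54, Uqcc2 at 0.32, Micos13 at 0.28 and Uqcc3 at 0.06.

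**Figure D3:**
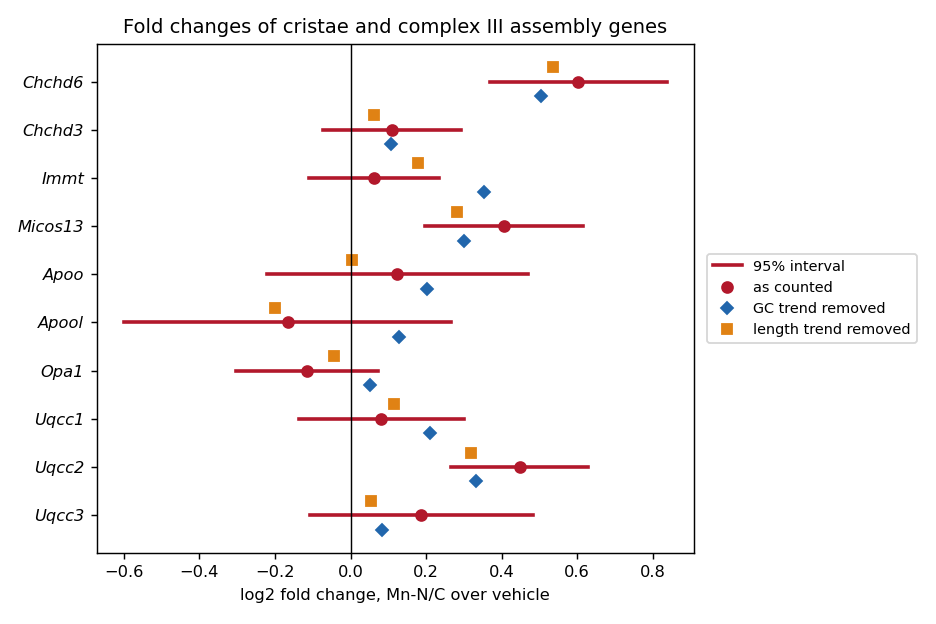
Log2 fold change of the 10 genes, Mn-N/C over vehicle, as counted (red, with 95% interval), with the trend on gene length removed (orange squares) and with the GC trend removed (blue diamonds). Chchd6 and Uqcc2 were chosen on this contrast, so their intervals are a description. The interval of Micos13 runs from 0.20 to 0.62, and Apool and Opa1 changed sign with the GC trend removed, to 0.13 and 0.05.

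**Figure D4:**
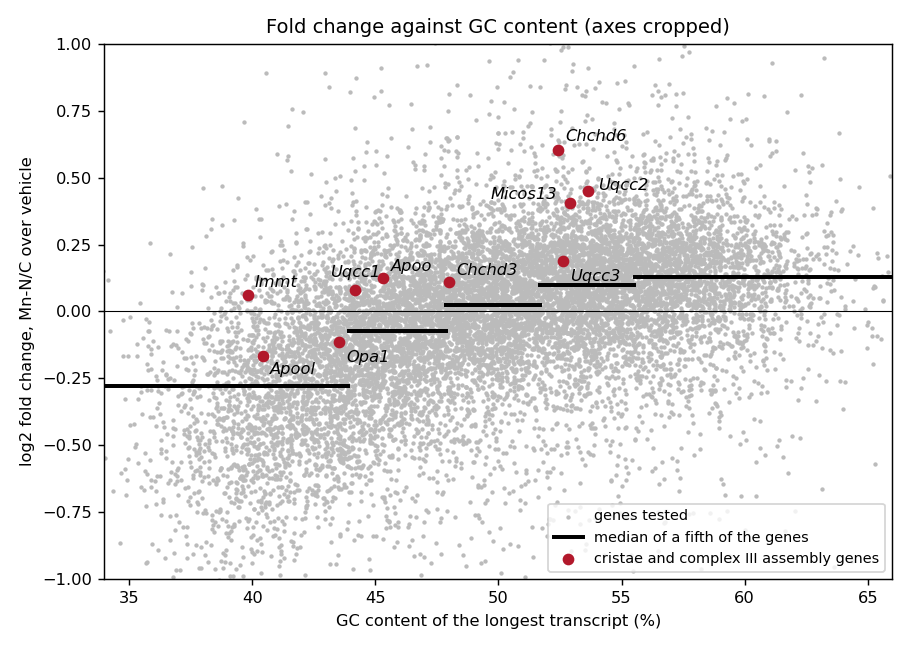
Log2 fold change (Mn-N/C over vehicle) against GC content of the longest transcript in percent, for the tested genes (gray) and the 10 genes (red), with black bars at the median of each of 5 equal classes of genes by GC content. The medians run from -0.28 in the lowest to 0.13 in the highest class. The axes are cropped, so a few genes lie outside.

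The nuclear subunits of complex III itself, whose assembly Uqcc1 to Uqcc3 serve, all had higher means in Mn-N/C tumors. Of 9 genes, 9 were higher, with a median log2 fold change of 0.26, where 50.2% of all tested genes had a higher mean. In edgeR 0 passed, as did 0% of all genes, and 5 were higher at an unadjusted p under 0.05, where 9.82% of all genes were. DESeq2 called Uqcrc1, Uqcr11 and Cyc1 higher, as it did 4.09% of the genes with an adjusted p. Uqcrc1, a core subunit, had 152, 160 and 152 CPM in Mn-N/C replicates 1 to 3, against 119, 136 and 108 CPM in vehicle replicates 1 to 3. Its log2 fold change was 0.36 (standard error 0.0921, adjusted p = 0.182 from edgeR).
The small subunit gene Uqcr11 was at 0.51 (standard error 0.147), the cytochrome c1 gene Cyc1 at 0.32 (0.0996) and the Rieske iron-sulfur gene Uqcrfs1 at 0.26 (0.0811) on the log2 scale. The median of the 9 genes was 0.13 with the trend on gene length removed; these genes are short, with a median length of 1363 bases against 4522 over all genes tested. Cytochrome b, the client of the Uqcc factors, is encoded by mitochondrial DNA. Its gene mt-Cytb had 952, 1015 and 1091 CPM in Mn-N/C replicates 1 to 3, against 975, 966 and 1441 CPM in vehicle replicates 1 to 3, which is -0.15 on the log2 scale (standard error 0.154, adjusted p = 0.623 in edgeR). This was 0.19 with the GC trend removed and 0.07 without vehicle replicate 3.

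The other complex III assembly genes did not share the values of Uqcc2. Of 6 tested genes, the mean was higher for 3 and lower for 3. The median log2 fold change was -0.04, which was above 0 in limma on FPKM (0.07 and 0.08). In edgeR 0 had an unadjusted p under 0.05, where 9.82% of all genes were higher and 11.1% lower. Of the 6, Ttc19 and Cox7a2l were lower without overlap between the groups, as were 12.1% of all genes. Ttc19, which clears fragments of the Rieske protein, had 22.2, 23.5 and 23.8 CPM in Mn-N/C replicates 1 to 3, against 26.8, 25.0 and 32.2 CPM in vehicle replicates 1 to 3. The log2 fold change was -0.27 (standard error 0.12) for Ttc19, -0.17 (0.0851) for Cox7a2l, which helps complex III join complex IV, 0.15 (0.17) for Bcs1l, which inserts the Rieske protein, and -0.23 (0.322) for its chaperone gene Lyrm7.

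Among 7 other genes of MICOS and its outer membrane partners, the mean was higher for 4 and lower for 3, at a median of 0.04 on the log2 scale, and 0 passed in edgeR or DESeq2. Micos10 (Mic10), which bends the membrane, had 75.6, 75.7 and 77.6 CPM in Mn-N/C replicates 1 to 3, against 65.9, 67.7 and 57.9 CPM in vehicle replicates 1 to 3, which is 0.26 on the log2 scale (standard error 0.0817, adjusted p = 0.182 in edgeR). Samm50, the outer membrane partner of Immt, was at 0.27 (0.0994) and the import gene Mtx3 at -0.31 (0.125). Dnajc11, a chaperone of the bridge between both membranes, was at 0.17 (0.097). Over the 16 alternatives the median ran from -0.04 without vehicle replicate 1 to 0.17 without vehicle replicate 2, and it was 0.11 with the GC trend removed.

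Of 10 tested genes for Opa1 cleavage and inner membrane scaffolds, the mean was higher for 7 and lower for 3, at a median of 0.18 on the log2 scale (0.11 to 0.23 over the 16 alternatives). The prohibitin genes Phb2 and Phb and Stoml2, which form ring-like or sheet-like scaffolds in the inner membrane, were at 0.33 (standard error 0.0793), 0.40 (0.112) and 0.34 (0.0891). DESeq2 called these 3 higher, as it did 4.09% of the genes with an adjusted p. Yme1l1, a protease that cleaves Opa1, was at -0.56 (0.213), with 60.8 ± 6.45 CPM in Mn-N/C and 89.8 ± 29.1 CPM in vehicle tumors (SD, n = 3 each). In edgeR 0 of the 10 passed (smallest adjusted p = 0.182).

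Genes of mitochondrial fusion and fission, mostly of the outer membrane, had 3 higher and 6 lower means of 9 tested, at a median of -0.03 on the log2 scale, which was 0.02 without vehicle replicate 2. Dnm1l, the fission GTPase, was at -0.52 (standard error 0.181), and DESeq2 called it lower, as it did 5.25% of the genes with an adjusted p. It had 57.8, 55.9 and 72.7 CPM in Mn-N/C replicates 1 to 3, against 82.2, 70.2 and 114 CPM in vehicle replicates 1 to 3. The groups thus overlapped. Its GC content of 40.9% lay in the lowest class, whose median log2 fold change was -0.28. The fusion genes Mfn1 and Mfn2 were at -0.14 (0.0867) and 0.17 (0.0855), and the inner membrane fission gene Mtfp1 at 0.70 (0.351), on a mean of 2.1 CPM in Mn-N/C and 1.29 CPM in vehicle tumors. None of the 9 passed in edgeR (smallest adjusted p = 0.193).

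Of 16 tested genes of the disulfide relay, which imports proteins with paired cysteines such as Chchd3 and Chchd6, and of other proteins of that fold, the mean was higher for 11 and lower for 5, at a median of 0.19 on the log2 scale. Ndufb7 and Ndufs5, complex I subunits of this fold, were at 0.34 (standard error 0.0834) and 0.35 (0.104), Aifm1, a partner of the relay, at 0.22 (0.0692) and Chchd2 at 0.24 (0.0796). Cox17, one of the genes with a lower mean, was at -0.39 (0.133). DESeq2 called Ndufb7 higher, as it did 4.09% of the genes with an adjusted p. Of 7 subunit genes of the membrane part and stalk of ATP synthase, whose dimers line the cristae edges, 7 had a higher mean. Their median was 0.31, and 50.2% of all tested genes had a higher mean. Atp5j2 was at 0.33 (0.0707) and Atp5h at 0.31 (0.0737), both called higher by DESeq2, as were 4.09% of genes with an adjusted p. Atp5md was at 0.31 (0.0948), Atp5k at 0.36 (0.155), Atp5pb at 0.02 (0.0952) and Atp5l at 0.007 (0.12).
Of 8 genes for cardiolipin, the lipid that MICOS and Opa1 bind, the mean was higher for 5 and lower for 3, at a median of 0.19. Tamm41, which makes an early precursor, was at 0.34 (standard error 0.101), the lipid transfer gene Prelid1 at 0.20 (0.0675), Lclat1 at 0.18 (0.0668) and Pgs1 at 0.19 (0.0904). The 3 lower ones were Triap1 at -0.10 (0.104), Tafazzin at -0.07 (0.0899) and Crls1 at -0.06 (0.128). In edgeR 0 genes of these 3 lists passed. The medians of the 3 lists stayed above 0 in all 16 alternatives, at 0.08 to 0.22 for the disulfide relay, 0.19 to 0.35 for ATP synthase and 0.06 to 0.20 for cardiolipin.

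**Figure D5:**
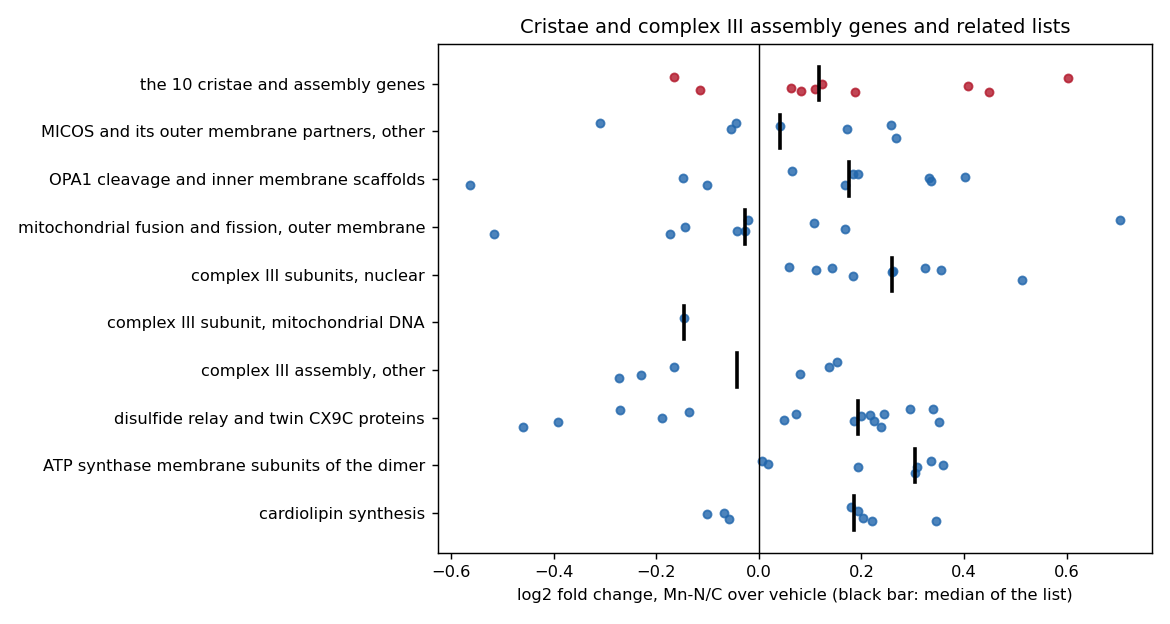
Log2 fold change (Mn-N/C over vehicle) of each tested gene, for the 10 genes (red) and for 9 related lists (blue), with a black bar at the median of each list. All 9 nuclear complex III subunits and all 7 ATP synthase subunits lie above 0, at medians of 0.26 and 0.31, and the other assembly genes lie on both sides.

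The genes with the pattern nearest to Chchd6 over the 6 libraries, by Euclidean distance of log2 CPM centered on each gene's mean, were Selenoh, a nuclear selenoprotein gene (distance 0.0991), Them6 (0.13) and Cox5a, a subunit of respiratory complex IV (0.18). For scale, Chchd6 itself lay 0.755 from a flat profile, and 294 of 12552 genes compared were within 0.5 times that distance of it. Selenoh was at 75.3 ± 1.28 CPM in Mn-N/C and 51.2 ± 4.35 CPM in vehicle tumors, and Cox5a at 22.3 ± 1.71 CPM in Mn-N/C and 15.5 ± 0.72 CPM in vehicle tumors (SD, n = 3 each). Nearest to Uqcc2 were Mgmt, a DNA repair gene (0.0573), Ccsap, a spindle and cilia gene (0.0965), and Gcsh, a mitochondrial glycine cleavage gene (0.104), and 414 genes were within 0.5 times the 0.569 by which Uqcc2 departed from a flat profile. Likeness over 6 libraries of 2 groups mostly reflects a similar difference between the groups.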

How the data were processed

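RNA of whole MC38 tumor pieces was sequenced, with 3 libraries for each group. The table was deposited with whole, unnormalized read counts for protein-coding genes and with FPKM, which the authors had scaled by gene length and library total. HISAT2 2.0 and the mm10 build are named in the submitters' processing notes. Counting program, annotation and strand setting: not given in the sources used here. Gene coordinates are those of the file. Of 21850 genes shared with the GRCm38 annotation (the build also called mm10), only 2.352% had equal start and end. The file's positions thus mostly differ from that annotation, and the 2 were not mixed. Gene positions from the file and promoter positions on GRCm38.p6 cannot be set against each other.

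The 10 genes, the related lists and the tests were chosen with earlier results of these data known. All 10 were to be named, and of each related list up to 4 genes with the smallest p and the one with the highest mean. The lists came from general knowledge. The groups were compared on the counts by edgeR 4.0.16 (R 4.3.3, TMM scaling, default filter on low counts, quasi-likelihood test with the group as the only term), with Benjamini-Hochberg adjustment over 12800 genes and a threshold of 0.05. The script was tested on simulated data. CPM are counts per 1000000 library counts after TMM scaling. Where a gene had no count, up to 3 remain possible by counting error alone (0.158 to 0.200 CPM). As 16 alternatives, the fit was repeated with RLE scaling, with DESeq2 1.42.0, without the filter, with limma 3.58.1 on log2(FPKM + 1) and log2(FPKM + 0.1) over genes that reached an FPKM of 1 in 3 or more libraries, with the replicate number as a block, with removal of each library's trend (loess, span 0.5) on gene length or GC content, with and without the block, and without each library in turn. GC content came from the longest GENCODE M21 transcript, for 12783 of the 12800 genes. Promoters came from RefSeq (GRCm38.p6), matched by symbol for all 10 genes.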

Additional observations from a re-analysis of the deposited data

How the results depend on the processing

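Over the 16 alternatives, the 10 genes gave 160 values, of which 147 kept their direction and side of the threshold, 3 kept their direction but had no adjusted p (Apoo, Apool and Uqcc3 in DESeq2), and 5 changed sign. The other 5 were past the threshold, but 4 of these were of Chchd6 and Uqcc2, which were chosen on this contrast and carry no test, and the fifth was Micos13 in DESeq2. With the GC trend removed, without and with the replicate block, Apool was at 0.128 and 0.130 and Opa1 at 0.0516 and 0.0518 on the log2 scale. With each library left out in turn, Apool ranged from -0.287 to 0.0439, with the positive value without vehicle replicate 3. DESeq2 called 746 genes, against 0 in edgeR (2682 at an unadjusted p under 0.05), 3 of the 10 genes and 10 of the 73 tested genes of the related lists. Over all genes with an adjusted p, DESeq2 called 4.09% higher and 5.25% lower. With each library left out, edgeR called 0 to 583 genes, 0 to 2 of the 10 genes and 0 to 9 of the 73, with every call in the fit without vehicle replicate 2. Of the genes among the 10, Chchd6 and Uqcc2 are 2 of the 3 in DESeq2 and both of those without that library, which their choice largely gives. The cause was not tested. Replicate numbers did not pair the samples (correlations of same-numbered deviations -0.17, -0.02 and 0.19), and with the replicate block edgeR called 0 genes, 0 of the 10 and 0 of the 73, with Chchd6 at 0.61 and Uqcc2 at 0.45. Counts of 160 to 3719 per library lay behind the values of the 10 genes, and the low genes Apoo, Apool and Uqcc3 were limited most.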
